A study of Mus musculus with 12 samples.

Results

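The dependence of the lung's ventilation response on the transcription factor Nrf2 was measured as an interaction, the effect of mechanical ventilation in Nrf2-deficient lungs minus its effect in wild-type lungs. It was chosen as a contrast over all 12 arrays of the series, 3 in each of 4 groups, and it was computed for 9333 genes. A negative value means that ventilation raised a gene less, or lowered it more, in the knockout than in the wild type. The mice were CD-1/ICR animals, either wild type (Nrf2+/+) or Nrf2-deficient (Nrf2–/–) throughout the body as far as the labels say. In each genotype, the control group (SpV) breathed spontaneously for 2 h, and the ventilated group (HVT) spent 2 h on a ventilator at a tidal volume of 30 ml/kg. The arrays, of the Affymetrix Murine Genome 430A type, carried total lung RNA. That RNA came from the left lobe on 11 arrays, while the label of wild-type SpV array 1 reads whole lung. Age, sex, anaesthesia and the deleted part of the gene are not given in the sources used here. The study's title asks whether oxidative stress contributes to ventilator-induced lung injury.

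Nrf2, the product of Nfe2l2, is held in the cytoplasm and marked for destruction by KEAP1 until oxidants or electrophiles modify KEAP1. It then enters the nucleus, pairs with a small MAF protein and binds antioxidant response elements in the promoters and enhancers of genes for glutathione synthesis, thioredoxin recycling, heme breakdown and detoxification. Overstretching the lung is known to set off a rapid programme of immediate early genes, cytokines and adhesion molecules in epithelial, endothelial and immune cells, in parallel with oxidant production.

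The deposited signals differed in brightness between arrays, with trimmed means of 279 to 439 on the 6 wild-type arrays, 182 to 247 on the 3 knockout HVT arrays, and 469.5 and 446 on knockout SpV arrays 2 and 3. Knockout SpV array 1 was the dimmest at 73.9 and had a beta-actin 3' to 5' signal ratio of 8.76 against 1.39 to 3.10 elsewhere. It correlated better with the knockout HVT arrays (mean r = 0.906 across genes) than with its own group (0.854). So did knockout SpV arrays 2 (0.921 against 0.911) and 3 (0.938 against 0.923), whose own-group means include array 1. Whether the RNA of knockout SpV array 1 was degraded or its ventilation label is wrong was not tested, and the label was kept. Interactions are therefore given on all 12 arrays and on the 11 that remain without this array. Normalized Nfe2l2 signals ran from 2144 to 3298 in wild-type lungs and from 36.2 to 61.3 in knockout lungs, so the labels and the targeted gene match. Its interaction was 0.06 ± 0.29 on 11 arrays (limma, adjusted p = 0.952) and 0.01 on 12. In whole-lung RNA, fewer cells of a type and less RNA per cell cannot be told apart.

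On all 12 arrays, no gene passed the test of the interaction at an adjusted p under 0.05 (limma with Benjamini-Hochberg adjustment, 0% of 9333 genes, lowest adjusted p = 0.201). At an unadjusted p under 0.05 there were 456 genes, 257 lower in the knockout response (2.75%) and 199 higher (2.13%). The 5 genes with the smallest p on the lower side were Mt1, Maff, Fos, Bmx and Socs3, with log2 interactions of -2.22, -1.94, -3.01, -1.22 and -3.19. On the higher side they were Gas1, Fntb, Cyp1a1, Col3a1 and Bnc1, with log2 interactions of 1.52, 1.14, 1.64, 1.14 and 1.56. Mt1 and Maff had an adjusted p of 0.201, and the 5 genes on the higher side had adjusted p from 0.518 to 1.

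Without knockout SpV array 1, 81 genes passed, 70 of them lower (0.75% of genes tested) and 11 higher (0.118%). Without scaling of the arrays 5271 passed and 99.9% of them were lower, against 86.4% here, around a median gene that itself lay at -1.06. By size the lower genes were led by the chemokine Cxcl1 (-4.15), the transcription factor Egr2 (-3.87) and the endothelial proteoglycan Esm1 (-3.67), with the NRF2 targets Hmox1 (-2.26), Srxn1 (-1.40) and Gclc (-1.34) further down. All 70 had a negative and all 11 a positive interaction on 12 arrays too. There 35 and 3 of them had an unadjusted p under 0.05 with limma (2.75% and 2.13% of all genes). The genes were called on 11 of these same arrays, so the kept signs go with the choice and are not separate support. The median interaction of the 70 was -1.92 on 11 arrays and -1.24 on 12, beside 0.03 and 0.02 over all genes, and that of the 11 was 1.58 and 0.96. The last gene inside the threshold was Snrnp48 (adjusted p = 0.0495) and the first outside was Tmprss4 (0.0505), both with positive values of 1.67 and 1.49.

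The dim array lay below both other knockout SpV arrays for 68 of the 70 lower genes and above both for all 11 higher genes, against 41.9% and 47.6% of all genes. The genes were called without that array, so its position goes with the way they were chosen. Among the 70, it lay below the highest knockout HVT array for 64, as it did for 5758 of all 9333 genes. Other arrays also moved the count. From 11 arrays, leaving out knockout SpV array 2 left 10 calls and knockout SpV array 3 left 16. Leaving out knockout HVT array 1, 2 or 3 left 35, 18 or 47 calls. Leaving out wild-type SpV array 1, 2 or 3 left 22, 44 or 32. For wild-type HVT array 1, 2 or 3 the counts were 68, 88 or 33. Across the 11 fits that left out 1 further array, Fos, Itgax, Jchain, Mt1 and Pfkfb3 were called in all 11. Pfkfb3, a regulator of glycolysis with an interaction of -1.99 (-1.34 on 12 arrays), is named here after its values were seen.

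**Figure D1:**
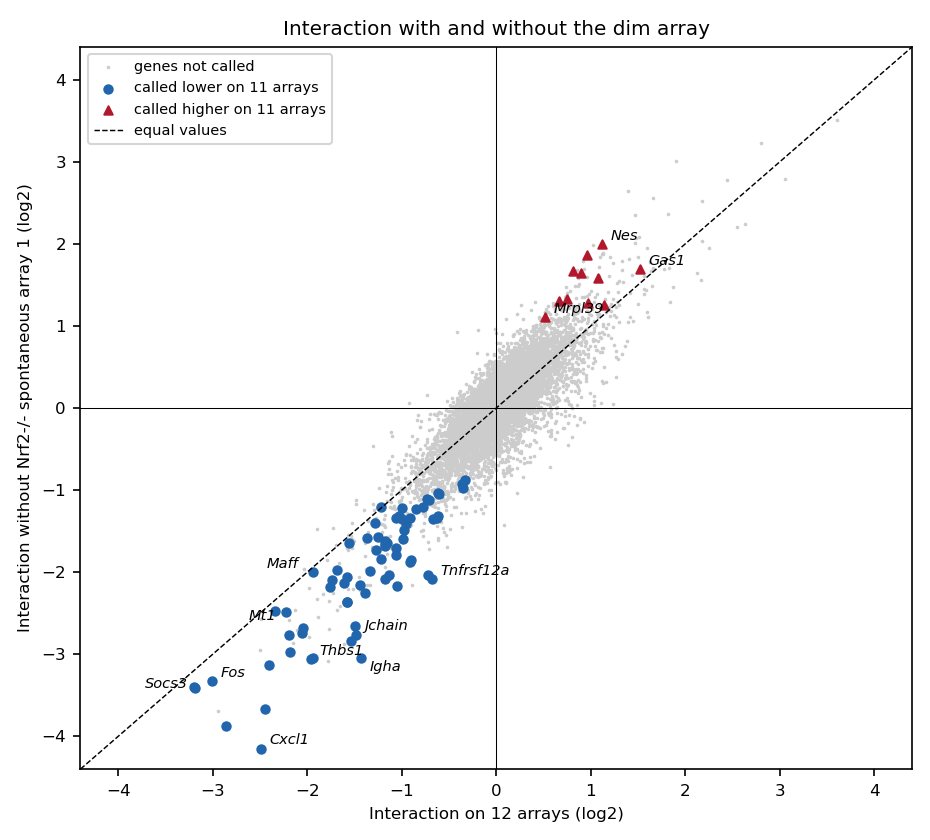
Log2 interaction of each gene on 12 arrays (x axis) and without knockout SpV array 1 (y axis). Blue circles are the 70 genes called lower on 11 arrays, red triangles the 11 called higher and grey points the other genes. All coloured points keep their sign on both axes, and most lie farther from 0 on the y axis.

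Brightness and RNA quality moved with the groups that make up the interaction. The knockout HVT arrays were dimmer than knockout SpV arrays 2 and 3, and their actin ratios of 3.10, 2.21 and 3.02 stood above the 1.39 and 1.52 of those arrays. With the log2 trimmed mean as a covariate, 3 genes were called on 11 arrays, Junb (-4.24), Mt1 (-3.49) and Sphk1 (-3.18), and 1 on 12 arrays, Zfp503 (2.06). With the actin ratio as a covariate, no gene was called on 11 arrays (lowest adjusted p = 0.113, 790 genes at an unadjusted p under 0.05) and Zfp503 alone (2.16) on 12. Sphk1 and Zfp503 are named here after their values were seen. All 81 genes kept their sign under both covariates, with medians of -2.17 (brightness) and -1.96 (actin) for the 70 lower genes. They were chosen on the same arrays, so their signs are not separate support. The median of the 11 higher genes shrank from 1.58 to 0.95 with brightness and to 0.84 with the actin ratio. The part of brightness and RNA quality in the calls was not tested beyond these fits.

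The typical lower gene was raised by ventilation in the wild type and lowered in the knockout. Over the 70 genes the median ventilation effect was 0.78 in the wild type and -1.01 in the knockout on 11 arrays (-0.43 on 12), beside -0.04 and 0.02 over all genes. In 62 of the 70 the wild-type effect was positive and the knockout effect negative, 6 were negative in both, and 2, Maff and Noct, were positive in both. On 11 arrays 19 of the 70 were called higher with ventilation in the wild type (0.407% of all genes were). In the knockout 40 were called lower (4.22%), and none was called in both. With the dim array counted, 0 of 9333 genes were called lower in the knockout. The 3 wild-type HVT arrays lay above the 3 SpV arrays for 49 of the 70 (7.9% of all genes), and the 3 knockout HVT arrays lay below the SpV arrays 2 and 3 for 60 (23%). With knockout SpV array 1 counted, the knockout groups stayed apart for 5 genes (7.53% of all genes did), Clec4d, Egr1, Klra17, Mmp8 and S100a8. Klra17, with an interaction of -1.58 (-1.37 on 12 arrays), is named after its values were seen. These counts describe the parts of the same contrast and are not separate evidence for it.

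**Figure D2:**
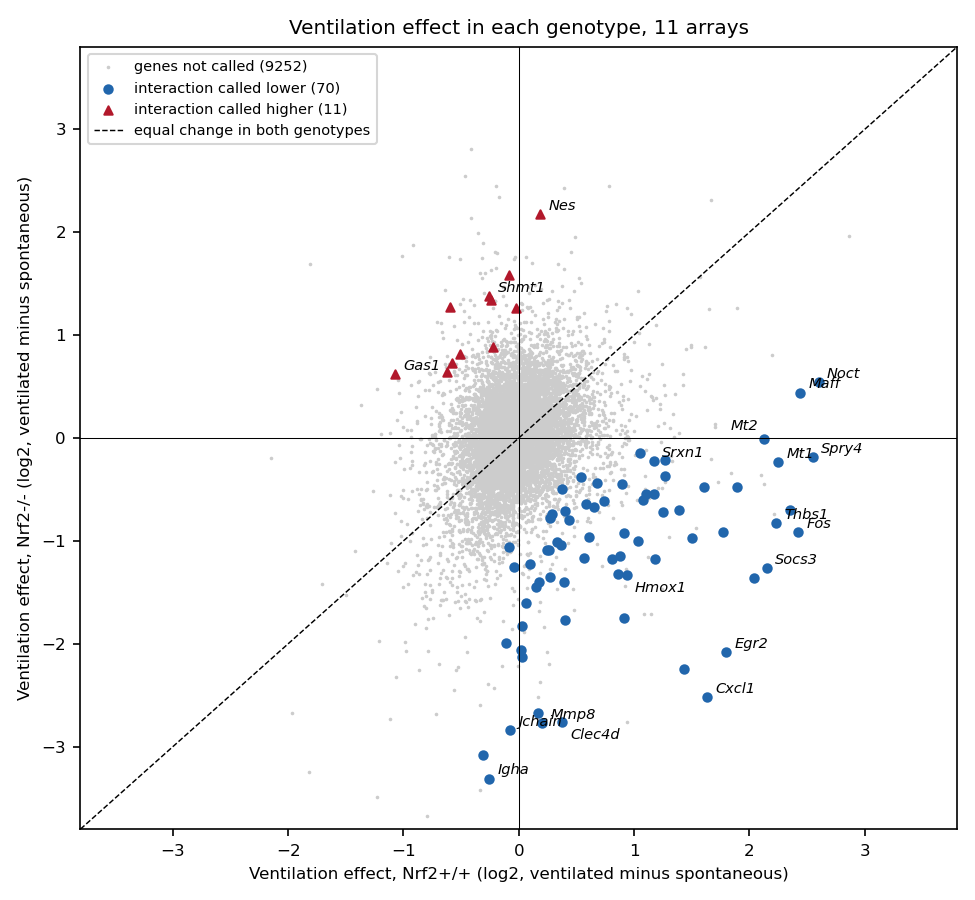
Ventilation effect (log2, HVT minus SpV) in Nrf2+/+ lungs on the x axis and in Nrf2-/- lungs on the y axis, on 11 arrays. Genes on the dashed line responded equally. The 70 genes called lower (blue) lie below the line, 62 of them in the quadrant of a positive wild-type and a negative knockout effect, and the 11 called higher (red) lie above it.

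Set out by genotype, the same values show where the groups differed. Before ventilation 66 of the 70 genes were higher in the knockout than in the wild type, with a median log2 difference of 1.28, and 39 were called higher (1.11% of all genes). After ventilation 65 of the 70 were lower in the knockout, with a median of -0.79, and 28 were called lower (3.27%). In 61 genes both held. For 48 genes the difference at rest was larger than that after ventilation. The genes were chosen for a difference after ventilation below that at rest, so these counts partly follow from the choice. The shares of all genes with such signs were not counted. The knockout values at rest come from 2 arrays here.

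**Figure D3:**
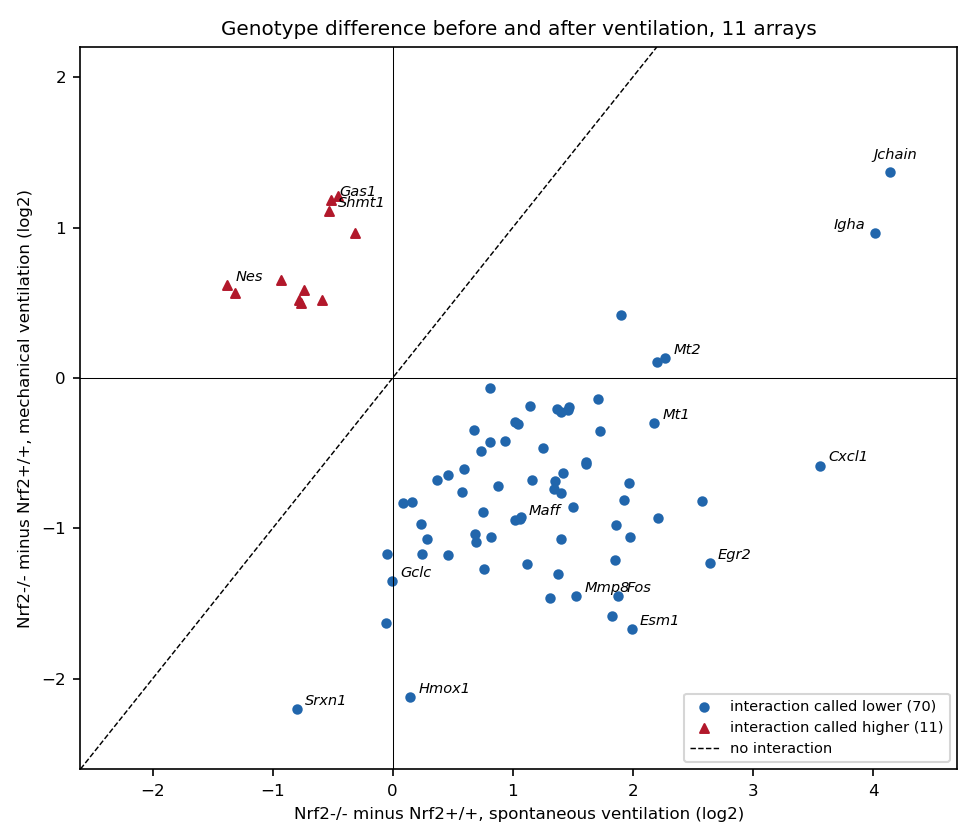
Log2 difference between genotypes (Nrf2-/- minus Nrf2+/+) during spontaneous (x axis) and mechanical ventilation (y axis) for the 81 called genes, on 11 arrays. The dashed line marks no interaction. Srxn1 lies at the lower left, and Gclc (-0.01 at rest) and Hmox1 (0.15 at rest) lie near the vertical zero line, well below 0 after ventilation. Most blue points lie at the lower right, higher in the knockout at rest.

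Among NRF2 target genes of redox defence and detoxification, 3 responded less in the knockout on 11 arrays. Of 48 listed genes 39 were tested, 30 had a negative interaction on 12 arrays (median -0.28) and 28 on 11 (median -0.15). On 11 arrays 3 (Hmox1, Srxn1 and Gclc) were called lower (0.75% of all genes were) and none higher. On 12 arrays 7 were lower at an unadjusted p under 0.05 (2.75% of all genes) and none higher. Summed over the list, the signal was 76650 to 83670 in wild-type SpV, 82380 to 99700 in wild-type HVT, 60450 to 72830 in knockout SpV and 63540 to 65960 in knockout HVT, so the knockout groups did not reach the wild-type range in either state.

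Srxn1, on chromosome 2, encodes sulfiredoxin, which repairs overoxidised peroxiredoxins. Its normalized signals were 315, 389 and 356 in wild-type SpV and 966, 606 and 916 in wild-type HVT. In the knockout they were 149, 173 and 221 in SpV and 157, 155 and 184 in HVT. The wild-type groups did not overlap, all 6 knockout arrays lay below all 6 wild-type arrays, and the knockout groups overlapped. The ventilation effect was 1.17 in the wild type (adjusted p = 0.0199) and -0.23 in the knockout (0.541), and the interaction was -1.40 ± 0.28 on 11 arrays (limma, adjusted p = 0.0445) and -1.28 ± 0.29 on 12 (0.617). Its 3 other probe sets were also negative, 2 of them at an unadjusted p under 0.05.

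Gclc, the catalytic subunit of the enzyme that limits glutathione synthesis, had signals of 4208, 3530 and 2728 in wild-type SpV and 6952, 5825 and 6483 in wild-type HVT. The knockout signals were 1886, 3488 and 3353 in SpV and 2824, 2285 and 2429 in HVT. At rest the genotypes overlapped (difference -0.01 without the dim array), and after ventilation the knockout arrays all lay below the wild-type arrays by a log2 difference of -1.35. The interaction was -1.34 ± 0.23 on 11 arrays (adjusted p = 0.03) and -1.06 ± 0.32 on 12. A second probe set gave -1.34.

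Hmox1, the inducible heme oxygenase, had signals of 166, 270.1 and 249.9 in wild-type SpV and 473, 325 and 566 in wild-type HVT. In the knockout it had 27.5, 319.8 and 195 in SpV and 80.0, 83.0 and 109 in HVT. The wild-type groups did not overlap, and the dim array gave the lowest signal of all. The interaction was -2.26 ± 0.38 on 11 arrays (adjusted p = 0.0289) and -1.39 ± 0.79 on 12 (adjusted p = 1). The knockout part of it, -1.33 (adjusted p = 0.0195), thus rested on SpV arrays 2 and 3.

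Other well-known targets show what did not pass, and are named for their textbook role after their values were seen. Txnrd1, thioredoxin reductase, had an interaction of -1.21 ± 0.28 on 11 arrays (adjusted p = 0.0763) and -0.87 on 12, with a genotype difference of -1.54 after ventilation. Nqo1, the quinone reductase, had genotype differences of -1.21 at rest (adjusted p = 0.0305) and -1.40 after ventilation (0.00512), and its interaction of -0.19 ± 0.34 on 11 arrays did not pass (adjusted p = 0.838), nor did the -0.46 on 12.

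The promoter of Srxn1 is shown because it is the called NRF2 target with a motif match close to its start. The stretch lies at chr2:152105444-152105520 on the plus strand (RefSeq, GRCm38.p6), with the AP-1 match TGAGTCA in capitals, 45 bases before the annotated start. The letters gc follow the match. The antioxidant response element core searched for, TGACNNNGC, differs from these letters only by a C in place of the G before TCA. A looser core was not searched.
Srxn1: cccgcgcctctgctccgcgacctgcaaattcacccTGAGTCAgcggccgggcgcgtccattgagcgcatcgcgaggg

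Immediate early genes, which cells transcribe within minutes of a stimulus without new protein synthesis, had negative interactions as a list, and 7 of them passed on 11 arrays (0.75% of all genes were called lower). Of 31 listed genes 29 were tested, and 28 were negative on 12 arrays (median -1.07, 14 at an unadjusted p under 0.05 against 2.75% of all genes) and 29 on 11 (median -1.39). None was called higher. Their summed signal was 36440 to 40410 in wild-type SpV and 61790 to 104400 in wild-type HVT. In the knockout it was 41200 to 84050 in SpV and 36660 to 53680 in HVT, with knockout SpV arrays 2 and 3 at 84050 and 50020. The knockout thus started higher on those 2 arrays and was not higher after ventilation.

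Fos, which pairs with Jun proteins to form AP-1, had signals of 903, 979 and 778 in wild-type SpV and 5934, 4877 and 3771 in wild-type HVT. In the knockout they were 1679, 5140 and 2113 in SpV and 1244, 1645 and 2592 in HVT. The wild-type groups were far apart, while the knockout groups overlapped and SpV array 2 stood alone at the level of ventilated wild-type lungs. The ventilation effect was 2.42 in the wild type (adjusted p = 0.00743) and -0.91 in the knockout (0.13). The interaction was -3.33 ± 0.47 on 11 arrays (adjusted p = 0.0139) and -3.01 ± 0.52 on 12 (0.221).

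Maff encodes a small MAF protein, a family whose members pair with NRF2 and with other partners. Its signals were 139, 232 and 268 in wild-type SpV and 1337, 1069.6 and 1174 in wild-type HVT, and 391, 447 and 447 in knockout SpV and 518, 585 and 759.5 in knockout HVT. None of the 4 groups overlapped another, the dim array included, and the knockout lay above the wild type at rest and below it after ventilation. The interaction was -2.0 ± 0.32 on 11 arrays (adjusted p = 0.022) and -1.94 ± 0.31 on 12 (0.201), so it moved little with the dim array.

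Egr1 and Egr2 are zinc-finger transcription factors of the same class of response. Egr1 had signals of 2447, 1283 and 2044 in wild-type SpV, 15560, 4107 and 7115 in wild-type HVT, 7384, 19708 and 6360 in knockout SpV, and 3702 to 5404 in knockout HVT. Its interaction was -3.40 ± 0.69 on 11 arrays (adjusted p = 0.0436) and -3.20 ± 0.67 on 12. Egr2 ranged from 69.1 to 118 in wild-type SpV and from 157 to 969 in wild-type HVT. Its knockout signals were 65.8, 850 and 513 in SpV and 83.9 to 228 in HVT, so SpV arrays 2 and 3 were far above the dim one. Its interaction was -3.87 ± 0.77 on 11 arrays (adjusted p = 0.0387) and -2.86 ± 1.09 on 12 (adjusted p = 1). Wild-type HVT array 1 was the highest wild-type array for both. Junb, another AP-1 subunit, had -2.47 ± 0.47 on 11 arrays (adjusted p = 0.0351) and -2.34 on 12. Dusp1, a phosphatase that switches off MAP kinases, had -1.64 ± 0.25 (adjusted p = 0.0139) and -1.16.

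Spry4, an inhibitor of receptor tyrosine kinase signalling, belonged to the stretch-linked growth factor list, in which it was the only one of 18 genes called (list median -0.41 on 11 arrays and -0.10 on 12). It had 7.9 to 18 in wild-type SpV and 117 to 201 in wild-type HVT, which did not overlap, and 10.5, 114 and 74.9 in knockout SpV against 51.5, 77.3 and 123 in knockout HVT, which did. Its interaction was -2.74 ± 0.51 on 11 arrays (adjusted p = 0.034) and -2.06 ± 0.74 on 12. Trib1, a pseudokinase scaffold, had an interaction of -3.05 ± 0.64 on 11 arrays (adjusted p = 0.0488) and -1.94 ± 1.08 on 12 (adjusted p = 1). Bmx, an endothelial and myeloid tyrosine kinase, had -1.20 ± 0.23 (0.0351) and -1.22. Noct, a rhythmic phosphatase of NADP(H), was raised in the wild type by 2.60 (adjusted p = 0.00127) and had an interaction of -2.06 ± 0.42 on 11 arrays and -1.58 ± 0.56 on 12, the only call among 16 clock genes.

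The promoters of the lower genes were searched for 4 motifs in the 250 bases before the start, on both strands. Promoters were in the RefSeq tables for 7520 of the genes tested, 52 of the 70 lower and 10 of the 11 higher. Genes were counted, and a gene with several annotated starts matched if any of them did. The number of starts was not taken into account. The antioxidant response element core, TGACNNNGC, was found for 13.8% of the 7520 genes and for 10 of the 52 (19.2%). The AP-1 site TGANTCA was in 6.08% and in 5 of 52 (9.62%), and the cAMP response element TGACGTCA was in 2.85% and in 5 of 52 (9.62%). The CArG box, the serum response element's core, was in 1.62% and in 2 of 52 (3.85%). None of the 4 was found for the 10 higher genes. These counts describe letters in a short window and are not binding.

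The 4 stretches below were chosen after the matches were seen, and hold matches of the called genes Mt2, Maff and Dusp1. Other called genes described here had matches that are not shown. These were Egr2, Tnfaip2 and Jchain (antioxidant response element), Plaur and Itgax (AP-1), Errfi1 (cAMP response element) and Egr2 again (CArG box). Capitals mark the match. In Mt2 the antioxidant response element at chr8:94172504-94172582, plus strand, is TGACTCAGC, and its first 7 letters are also an AP-1 match. Maff has an antioxidant response element at chr15:79346474-79346552 and a cAMP response element at chr15:79347462-79347519, plus strand, before 2 different annotated starts. Dusp1 has a cAMP response element at chr17:26508573-26508650, shown 5′ to 3′ on the minus strand on which the gene lies. The same stretch holds an antioxidant response element match of Dusp1 on the opposite strand, 133 bases before the start. It reads gcccggtca as printed and is not in capitals.
Mt2: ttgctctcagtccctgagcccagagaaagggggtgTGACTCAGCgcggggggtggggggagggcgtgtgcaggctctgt
Maff, first start: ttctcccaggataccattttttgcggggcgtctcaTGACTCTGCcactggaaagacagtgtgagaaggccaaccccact
Maff, second start: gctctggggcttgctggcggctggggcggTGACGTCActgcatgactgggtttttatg
Dusp1: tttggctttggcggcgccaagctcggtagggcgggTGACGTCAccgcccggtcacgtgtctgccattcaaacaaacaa

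Metallothioneins are small zinc-binding and oxidant-scavenging proteins, and Mt1 had the smallest p of the interaction on 12 arrays. Mt1 had signals of 1592, 1526 and 1043 in wild-type SpV and 8517, 4708 and 6926 in wild-type HVT. In the knockout they were 3631, 5715 and 6771 in SpV and 5188, 5198 and 5510.0 in HVT. The wild-type groups did not overlap, the knockout SpV arrays already lay above every wild-type SpV array, and ventilation left the knockout in the same range. The ventilation effect was 2.25 in the wild type (adjusted p = 0.000399) and -0.23 in the knockout (0.566). The interaction was -2.48 ± 0.31 on 11 arrays (adjusted p = 0.0129) and -2.22 ± 0.36 on 12 (0.201), and a second probe set gave -2.25 on 11 arrays.

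Mt2 behaved alike in the wild type, from 1482 to 2251 in SpV and from 5800.2 to 9657 in HVT. In the knockout it had 2881, 7384 and 10115 in SpV and 7638 to 9170.2 in HVT, with the dim array lowest. Its interaction was -2.13 ± 0.30 on 11 arrays (adjusted p = 0.0139) and -1.61 ± 0.51 on 12. Both genes sit next to each other on chromosome 8. Their list, metallothionein and glucocorticoid response genes, had 5 of 18 members called lower (0.75% of all genes were) and none higher, with a median of -0.83 on 11 arrays and -0.46 on 12. Errfi1, a feedback inhibitor of EGF receptor signalling, had -1.84 ± 0.37 (adjusted p = 0.0445) on 11 arrays and -1.22 ± 0.61 on 12. Lcn2, an iron-sequestering protein of neutrophils and epithelium, had -1.85 ± 0.36 (adjusted p = 0.0365) on 11 arrays and -0.90 ± 0.84 on 12. The remaining call was Cebpd, a C/EBP transcription factor, at -1.35 on 11 arrays and -0.99 on 12, and a second Cebpd probe set had the opposite sign (0.52, unadjusted p = 0.109 with limma).

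**Figure D4:**
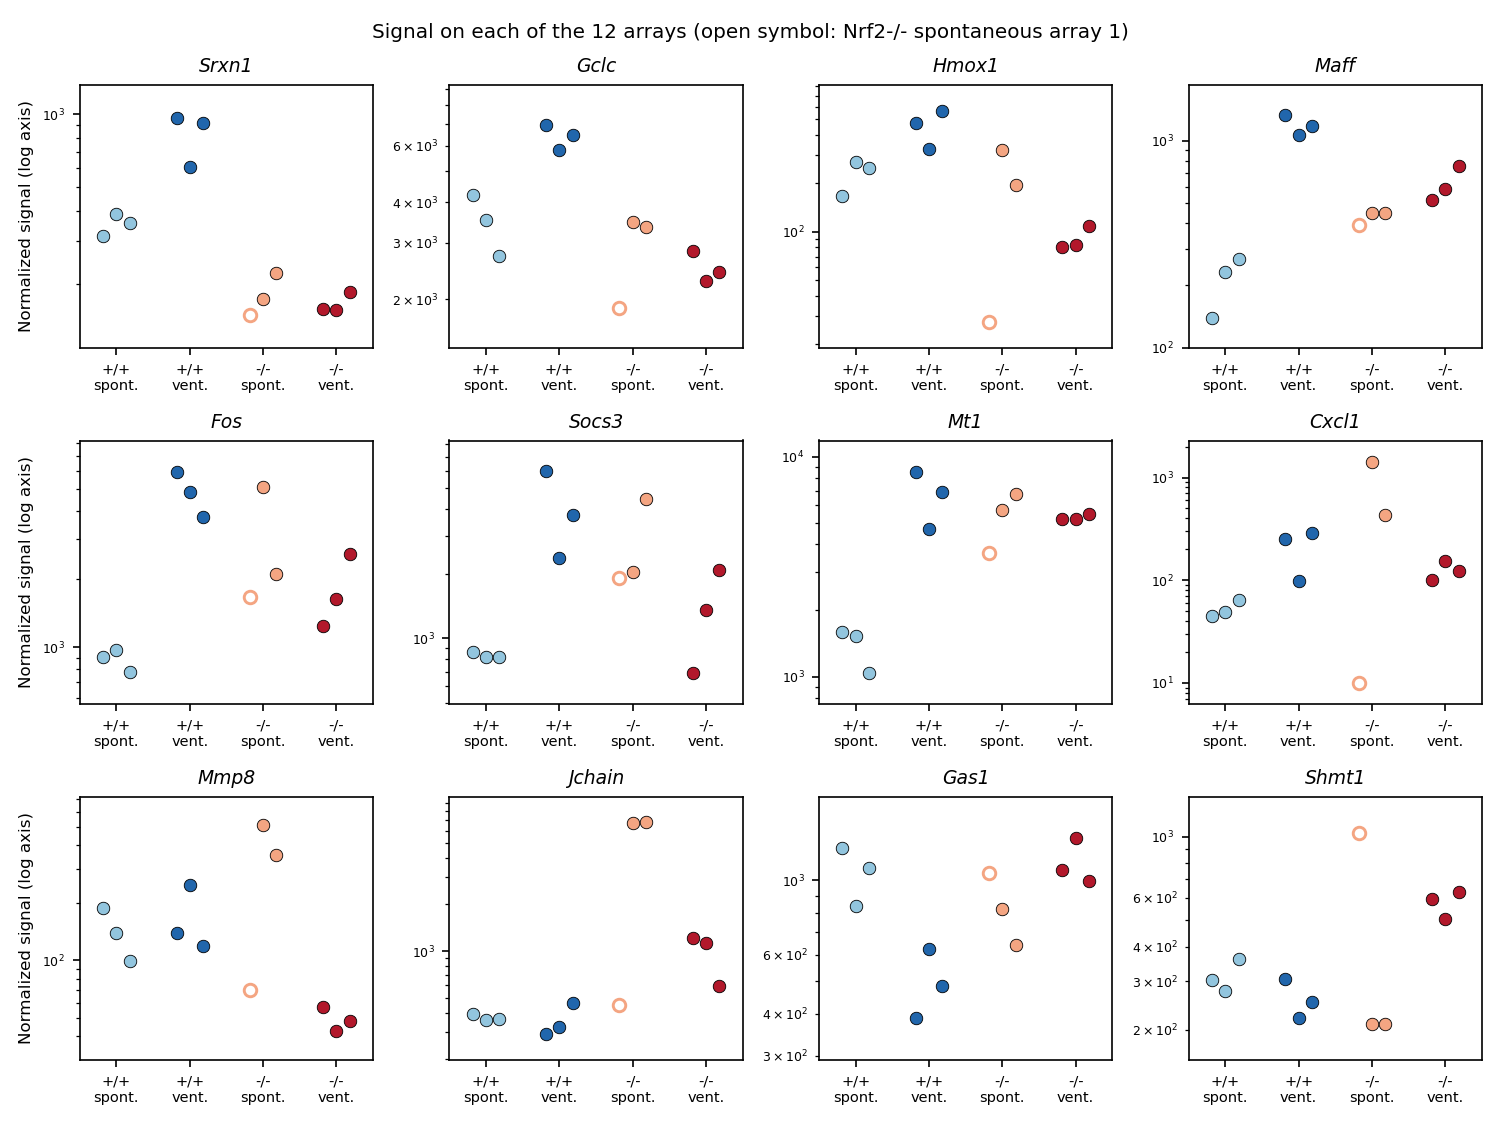
Normalized signal (log axis) of 12 genes on each array, for wild-type (blue) and knockout (red) lungs under spontaneous (pale) and mechanical (dark) ventilation. The open symbol is knockout SpV array 1. For Srxn1, Maff, Fos and Mt1 the dark blue points lie above all pale blue points, while the knockout groups show no such step of that size. For Jchain and Shmt1 the open symbol lies far from the other knockout SpV arrays.

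Acute cytokines and chemokines leaned the same way on few measured genes. Of 19 listed 8 were tested, with a median of -1.61 on 11 arrays and -1.39 on 12, and 1 was called, Cxcl1, a neutrophil chemoattractant. Cxcl1 had signals of 44.7, 49.3 and 63.8 in wild-type SpV and 251, 98.0 and 290 in wild-type HVT. In the knockout it had 10, 1431 and 433 in SpV and 101, 155 and 122 in HVT. The knockout SpV group spanned both the lowest and the highest of the 12 signals, so its interaction, -4.15 ± 0.63 on 11 arrays (adjusted p = 0.0139), was -2.49 ± 1.46 with the dim array (adjusted p = 1). Ptgs2, the inducible prostaglandin synthase, is named for its role after its value was seen, and had -0.90 ± 0.81 on 11 arrays (adjusted p = 0.638) and -0.35 on 12.

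NF-kB feedback and adhesion genes had 3 of 15 members called lower (0.75% of all genes were) and none higher (median -0.88 on 11 arrays, -0.49 on 12). Nfkbiz, an inducible nuclear IkB protein, had 428 to 464.5 in wild-type SpV and 756 to 1365 in wild-type HVT. In the knockout it had 435, 1432 and 1089 in SpV, with the dim array at the wild-type SpV level, and 803 to 832 in HVT. The genotype difference was 1.46 at rest without the dim array and -0.22 after ventilation. The Nfkbiz interaction was -1.68 ± 0.29 on 11 arrays (adjusted p = 0.03) and -1.18 ± 0.49 on 12. Tnfaip2 had -2.09 ± 0.38 (0.0308) and -1.74, and Bcl3, another nuclear IkB protein, had -2.18 ± 0.43 (0.0386) and -1.76.

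Socs3, the feedback inhibitor of IL-6 and STAT3 signalling, had signals of 868, 815 and 820.5 in wild-type SpV and 5983, 2360.4 and 3764 in wild-type HVT. In the knockout they were 1910.1, 2030 and 4442 in SpV and 689, 1350.2 and 2073 in HVT. The wild-type groups did not overlap, and the knockout groups overlapped with SpV array 3 as the highest. The interaction was -3.41 ± 0.60 on 11 arrays (adjusted p = 0.03) and -3.19 ± 0.59 on 12 (0.256), and both other probe sets were negative. Dnajb4, a heat shock cochaperone, was the only call among 20 heat shock genes at -1.11 ± 0.20 on 11 arrays (adjusted p = 0.0308, list median -0.35) and -0.73 ± 0.37 on 12 (list median -0.27).

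On 11 arrays 11 of 14 tested neutrophil markers fell with ventilation in the knockout (4.22% of all genes did), and none passed in the wild type in either direction. With the dim array none of the 14 passed in the knockout (limma, 0% of all genes), and 11 were lower at an unadjusted p under 0.05. Of the 14, from a list of 19, 13 had negative interactions in both fits (median -1.58 on 11 arrays and -1.07 on 12), and 5 were called lower with none higher. Their summed signal was 7434 to 10080 in wild-type SpV and 6039 to 11250 in wild-type HVT. It was 7987 on the dim knockout SpV array and 18770 or more on the other 2, and 5202 to 7932 in knockout HVT. Elane and Mpo, made in precursors, were not among the genes tested, and the lowest signal of a tested marker was 4.61 (Camp, knockout HVT array 1).

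S100a8, a subunit of calprotectin, had signals of 3545, 2791 and 2582 in wild-type SpV and 1819, 4352 and 1687 in wild-type HVT. In the knockout it had 2158, 10586 and 5059 in SpV and 842, 778 and 937 in HVT. The knockout groups did not overlap even with the dim array, and the wild-type groups did. The interaction was -2.77 ± 0.49 on 11 arrays (adjusted p = 0.03) and -2.19 ± 0.67 on 12 (adjusted p = 1). Mmp8, neutrophil collagenase, had 98.9 to 188 in wild-type SpV, 118.5 to 249 in wild-type HVT, 69.6, 510.0 and 357 in knockout SpV and 42.5 to 57.0 in knockout HVT. Its interaction was -2.97 ± 0.43 on 11 arrays (adjusted p = 0.0139) and -2.18 ± 0.76 on 12. Clec4d, a myeloid lectin receptor, had -3.13 ± 0.59 (0.034) and -2.40 ± 0.81, and Csf3r, the G-CSF receptor, had -2.16 ± 0.41 (0.0351) and -1.44 ± 0.70.

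Other leukocyte markers included 2 macrophage genes. Of 14 macrophage markers tested, these 2 were called lower (0.75% of all genes were) and none higher, with a list median of -0.40 on 11 arrays and 0.12 on 12. Itgax, the integrin CD11c, had 315 to 332.5 in wild-type SpV, 379 to 404 in wild-type HVT, 342, 853 and 904 in knockout SpV and 298 to 399 in knockout HVT. Its interaction was -1.62 ± 0.21 on 11 arrays (adjusted p = 0.0129) and -1.18 ± 0.41 on 12. Cd14, the endotoxin co-receptor, had -1.34 ± 0.27 (0.0445) and -0.91 ± 0.44. Ccl6, a macrophage chemokine outside that list, had -2.84 ± 0.50 on 11 arrays (adjusted p = 0.03) and -1.54 ± 1.14 on 12 (adjusted p = 1).

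Of the immunoglobulin genes, Jchain, the chain that joins IgA and IgM, had 389, 360 and 361.5 in wild-type SpV and 289.5, 323 and 462 in wild-type HVT. In the knockout it had 451, 6756 and 6802 in SpV and 1215, 1134 and 593.5 in HVT. SpV arrays 2 and 3 were the 2 highest arrays by a wide margin, and the dim array was at the wild-type level. The interaction was -2.76 ± 0.36 on 11 arrays (adjusted p = 0.0129) and -1.48 ± 1.09 on 12. Igha, the IgA heavy chain, gave -3.05 ± 0.57 and -1.43 ± 1.41. The list of 11 B cell markers that holds both had a median of -0.01 on 11 arrays and 2 calls. Its summed signal was 3471 on the dim array, 18780 and 21310 on the other knockout SpV arrays, 4923 to 10110 in knockout HVT and 2326 to 3695 in the wild type.

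No endothelial marker passed, and the direction of their median turned with the fit. Of 22 tested, 17 were negative on 11 arrays (median -0.59) and 13 on 12 (median -0.09), with none called at either. The 11-array median was 0.38 with the actin covariate and 0.03 with the brightness covariate. Clec14a, an endothelial surface lectin, had 2078 to 2864 in wild-type SpV, 1180.0 to 1825 in wild-type HVT, 384.5, 2194 and 1658 in knockout SpV and 330 to 436 in knockout HVT. Its interaction of -1.39 ± 0.30 on 11 arrays missed the threshold (adjusted p = 0.0538), as did Flt1, a VEGF receptor, at -1.17 ± 0.26 (0.0714). On 12 arrays they were at -0.63 and -0.55. The summed endothelial signal of the dim array, 18970, was at the level of knockout HVT, 19370 to 21030, and below the 35920 and 44170 of the other knockout SpV arrays. Esm1, an endothelial proteoglycan outside that list, had 25.3 to 51.3 in wild-type SpV, 89.8 to 167 in wild-type HVT, 1.20, 293 and 132 in knockout SpV and 21.5 to 41.0 in knockout HVT. It was called at -3.67 ± 0.53 on 11 arrays (adjusted p = 0.0139) and had -2.45 ± 1.11 on 12 (adjusted p = 1).

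Of the alveolar epithelium, type I markers had 10 of 11 genes negative on 11 arrays (median -0.72) and 7 on 12 (median -0.19). Cav1, the caveolar coat protein, which endothelium also expresses, was the 1 call at -0.98 ± 0.19 (adjusted p = 0.0365) on 11 arrays and -0.35 ± 0.54 on 12. Type II markers had no call (median -0.34 on 11 arrays and 0.06 on 12). The values nearest to passing were -1.63 ± 0.39 for the chitinase-like protein Chil1 (adjusted p = 0.0873) and -0.45 ± 0.13 for the collectin Sftpd (0.159), against -0.72 and -0.31 on 12 arrays.

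Coagulation and fibrinolysis genes had 3 of 10 members called lower (0.75% of all genes were) and none higher (median -0.81 on 11 arrays, -0.07 on 12). Plaur, the urokinase receptor, had 432, 449.8 and 622 in wild-type SpV and 1204, 1104 and 1348 in wild-type HVT, and 579, 673 and 697 in knockout SpV against 424, 478 and 716 in knockout HVT. Only the wild-type groups stood apart. Its interaction was -1.64 ± 0.30 on 11 arrays (adjusted p = 0.03) and -1.56 ± 0.29 on 12 (0.256). Thbs1, thrombospondin 1, rose in the wild type by 2.23 (adjusted p = 0.0258) and had an interaction of -3.06 ± 0.57 on 11 arrays (0.034) and -1.96 ± 1.03 on 12 (adjusted p = 1). Plat, tissue plasminogen activator, had -1.73 ± 0.30 (0.03) and -1.27 ± 0.47 (adjusted p = 1).

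Of the 11 genes with a higher knockout response, most lay on opposite sides of 0 in the genotypes. In 10 of them the wild-type effect was negative and the knockout effect positive, 9 were called higher in the knockout (2.15% of all genes) and 1, Gas1, was called lower in the wild type (0.0536%). All 3 knockout HVT arrays lay above SpV arrays 2 and 3 for all 11 (24% of all genes). These counts also describe parts of the contrast by which the genes were chosen. Gas1, a membrane protein of growth arrest and hedgehog signalling, had 1247, 837 and 1089 in wild-type SpV, 388, 624 and 483 in wild-type HVT, 1049, 821 and 641 in knockout SpV and 1074, 1336 and 998 in knockout HVT. The groups of each genotype were apart in opposite directions once the dim array was left out. The interaction was 1.69 ± 0.31 on 11 arrays (adjusted p = 0.03) and 1.52 ± 0.33 on 12 (0.518). Fntb, the beta subunit of protein farnesyltransferase, had 1.26 ± 0.25 on 11 arrays (adjusted p = 0.0385) and 1.14 ± 0.26 on 12.

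Shmt1, cytosolic serine hydroxymethyltransferase, had 302, 276 and 359 in wild-type SpV and 306.5, 221 and 252 in wild-type HVT, and 1032, 210.5 and 210.4 in knockout SpV against 596.5, 502 and 630 in knockout HVT. The dim array was the highest of the 12, above all HVT arrays. The interaction was 1.64 ± 0.25 on 11 arrays (adjusted p = 0.0139) and 0.90 ± 0.64 on 12. The same position of the dim array held for Nes, Il4i1, Snrnp48, Pdpk1, Cplx2, Tmem63b and Mrpl39, whose interactions on 11 arrays ran from 1.11 (Mrpl39) to 2.0 (Nes), and on 12 arrays from 0.52 (Mrpl39) to 1.12 (Nes). Probe sets disagreed for several of them. A second Nes probe set gave -0.69, a second one for the ER chaperone Hyou1 gave -0.36 beside its called 1.28 (0.97 on 12 arrays), and for Snrnp48 2 of 3 others were negative.

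Other probe sets were measured for 32 of the 81 called genes. Of these 47 probe sets, 42 had the sign of the called one, 30 of them at an unadjusted p under 0.05 (limma). The 5 with the opposite sign belonged to the higher genes Nes, Hyou1 and Snrnp48 and the lower gene Cebpd. For the higher genes Gas1 (0.59), Pdpk1 (0.32) and Shmt1 (0.27) the other probe set kept the sign at an unadjusted p above 0.05. Those of Mrpl39 (0.52) and a further Snrnp48 probe set (0.86) were under 0.05. Among the called genes described here, the probe sets of Mt1, Socs3, Igha, Srxn1, S100a8, Clec4d, Tnfaip2, Hyou1 and Snrnp48 carry a suffix (s_at or x_at) that marks possible binding of related transcripts.

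Of the genes named on the higher side on 12 arrays, Cyp1a1, Col3a1 and Bnc1 were not called on 11. Cyp1a1, the aryl hydrocarbon receptor's marker enzyme, had 420.2, 262 and 370 in wild-type SpV and 153, 207 and 126.5 in wild-type HVT, and 138, 204 and 194 in knockout SpV and 372, 294 and 190.5 in knockout HVT. Its interaction was 1.48 ± 0.38 on 11 arrays (adjusted p = 0.113). Col3a1, a fibrillar collagen, had 1.24 ± 0.28 (0.0763), and Bnc1, a mesothelial and basal epithelial transcription factor, 1.45 ± 0.44 (0.173). Fibroblast and mesothelial markers as a list had no call (median 0.26 on 12 arrays and -0.17 on 11), with Inmt, a lung methyltransferase, at -0.69 ± 0.17 on 11 arrays (0.0977) and -0.47 on 12.

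Several lists leaned towards a higher knockout response with no member called. Over all genes, 53% were positive on 12 arrays and 53.4% on 11. Airway markers were positive for 11 of 14 on 12 arrays and 13 on 11, and proteasome subunits for 25 of 31 and 24. Interferon-stimulated genes, described below, were positive for 15 of 18 and 12. Mitochondrial respiratory chain genes were positive for 30 of 31 on 12 arrays (median 0.36) and 29 on 11 (median 0.44). Knockout HVT array 2 was the highest, with a summed signal of 147500 against 107100 and 106200 on knockout HVT arrays 1 and 3. Without array 2 the medians were 0.18 and 0.20. The complex I subunits Ndufs1 and Ndufv2 had 0.77 ± 0.24 (limma, adjusted p = 0.185) and 0.74 ± 0.24 (0.193) on 11 arrays. On 12 arrays they had 0.53 and 0.52. Heart muscle markers were positive for 16 of 16 in both fits (median 0.58), with 1.26 ± 0.41 for titin (Ttn, adjusted p = 0.198) and 0.67 ± 0.20 for the atrial light chain Myl7 (0.167) on 11 arrays (1.09 and 0.67 on 12). Their summed signal was 34080 to 49070 in wild-type SpV, 33450 to 52570 in wild-type HVT, 58110 to 68760 in knockout SpV and 73540 to 100100 in knockout HVT. Knockout HVT array 2 was again the highest (100100 against 80680 and 73540), and Ttn had 10546 there against 4943 and 5664. With 1 further array left out, the heart median on 11 arrays ran from 0.43 to 0.80. Without scaling of the arrays the median gene shifted by -1.06 on 11 arrays, and the respiratory chain and heart medians became -0.79 and -0.60, still above that shift.

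Interferon-stimulated genes had a median of 0.24 on 11 arrays and 0.44 on 12, and this direction rested on knockout HVT array 3. Without that array the medians were -0.19 and -0.02, and with the actin or brightness covariate the 11-array median was -0.55 or -0.21. Rsad2, an antiviral radical-SAM enzyme, had 757, 709.9 and 3212 in knockout HVT, and Oasl2, an oligoadenylate synthetase-like protein, had 294, 155 and 1113, each with knockout HVT array 3 as the highest. Their interactions were 1.71 ± 0.71 (adjusted p = 0.288) and 1.44 ± 0.78 (0.418) on 11 arrays, and 1.65 and 1.58 on 12. Proteasome subunits had a median of 0.19 on 11 arrays and cytosolic ribosomal proteins -0.06, with no call in either. Airway markers (median 0.28 on 11 arrays and 0.07 on 12), T and NK cell markers (-0.02 and -0.03), platelet markers (0.02 and 0.05), smooth muscle markers (-0.07 and -0.11), tight junction genes (-0.04 and -0.02) and alveolar ion and water transport genes (-0.18 and -0.20) had no call. Nor did red cell markers (0.32 and 0.16, 5 genes tested), fat cell markers (-0.16 and 0.38, 6 genes) and the 1 thymus marker tested (0.27 and 0.71). Genes of the ER stress response had a median of -0.24 on 11 arrays and -0.12 on 12, with Hyou1 as the 1 call, in the higher direction. The lists hold 35 of the 81 called genes, and 46 called genes are in none.

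**Figure D5:**
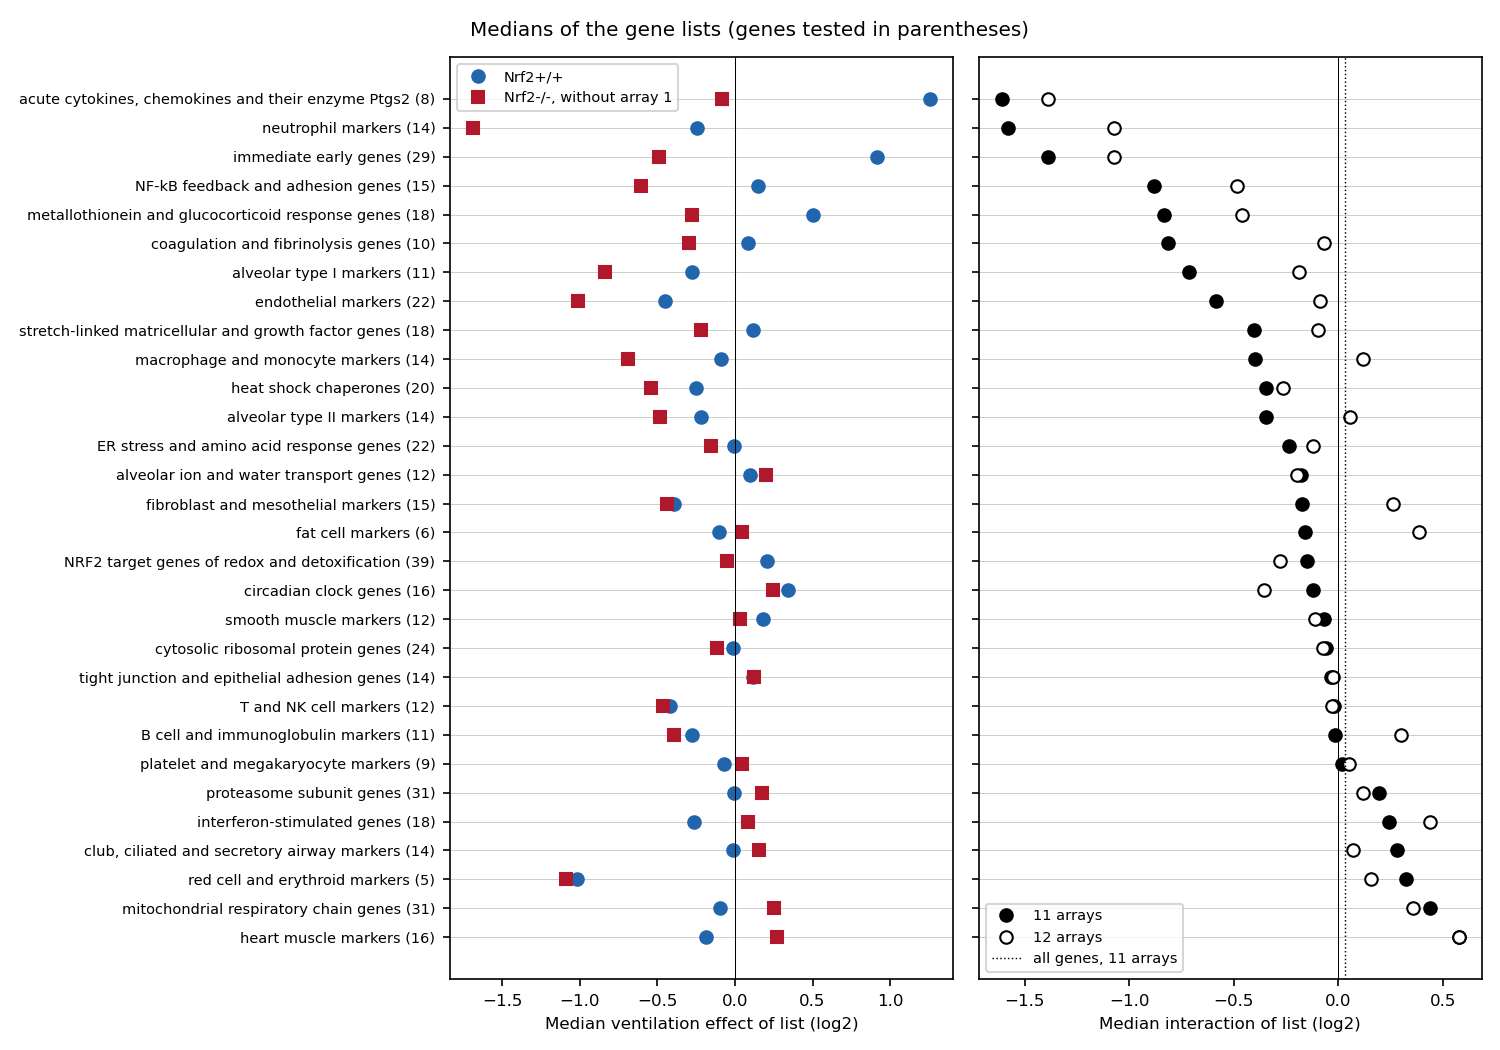
Left, the median ventilation effect (log2) of each gene list with at least 5 genes tested in Nrf2+/+ (circles) and Nrf2-/- lungs (squares, without SpV array 1). Right, the median interaction on 11 (filled) and 12 arrays (open), with the median of all genes as a dotted line. Acute cytokines, neutrophil markers and immediate early genes have the lowest medians in both fits, and heart muscle markers the highest on 11 arrays.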

How the data were processed

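Each of the 12 arrays gave 1 value per probe set. The deposited values are linear probe set signals (intensity), made with GCOS 1.4, the scanner maker's operating software, per the submitters' processing notes. The design text describes scaling to an average of 500, which the deposited intensity values do not show, so each array was scaled to a mean of 500, trimmed by 2% at each end, and the arrays were quantile normalized. A pseudocount of 16 was added before log2. Of 22690 probe sets, 64 controls were left out and those with a scaled signal of 100 on at least 3 arrays were kept. GEO's platform annotation names 1 gene for 20393 probe sets, of which 20364 matched RefSeq (GRCm38.p6), and a gene took its probe set with the highest mean. Bright probe sets may be compressed, since the highest deposited signal lay between 12046 and 14272 on every array.

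Group means were fitted with limma 3.58.1 in R 4.3.3 (eBayes, intensity trend, 8 residual degrees of freedom on 12 arrays and 7 on 11), and Benjamini-Hochberg adjusted p under 0.05 was a call. Errors printed with ± are standard errors of limma. The median standard error of the interaction was 0.33 on 12 arrays and 0.29 on 11, with precision limited by the number of arrays. In simulated data the fit recovered 24% of log2 changes of 1 and 77% of changes of 2 on 12 arrays (32% and 86% on 11). False calls were 2 and 9 among 9333 genes. The simulation drew independent noise for each gene and changed only the knockout HVT group. It held no brightness or RNA quality shift shared by the genes of an array, so its false calls do not bound those in the real data. Whether replicates came from different animals is not given in the sources used here, so p-values cover only the spread between these samples, possibly a technical one. Replicate numbers are not stated to pair the arrays. Same-numbered arrays of different groups had deviations with r from -0.17 to 0.39 (median 0.02, 6 of 18 over 0.1). Arrays with other numbers had r from -0.40 to 0.30 (median -0.02, 6 of 36 over 0.1). These values do not settle whether the numbers pair arrays, and the main fit has no block.

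Genes and lists were chosen with earlier results of these data known. Text names Nfe2l2, the 5 genes with the smallest p in each direction on 12 arrays, the 12 largest called genes in each direction on 11, and up to 4 called members (or 2 uncalled, as values) of the 31 lists described. Alternatives covered scaling, pseudocount, filter, probe set choice, variance model, array weights, covariates, a replicate block and each array left out.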

Additional observations from a re-analysis of the deposited data

Results flagged for a closer look

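Each gene below is one for which the ventilation effect differed between the genotypes by the test of the difference itself, the interaction on 11 arrays (limma, adjusted p under 0.05). None passed on 12 arrays. Values are log2 interactions, and groups of 3 arrays are too small for a test of single outlying arrays.

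Among NRF2 targets and metallothioneins, the values were -2.26 for Hmox1, -1.40 for Srxn1, -1.34 for Gclc, -2.48 for Mt1 and -2.13 for Mt2. Among immediate early and signalling genes they were -3.33 for Fos, -2.0 for Maff, -3.40 for Egr1, -3.87 for Egr2, -2.47 for Junb, -1.64 for Dusp1, -3.05 for Trib1, -1.20 for Bmx, -2.74 for Spry4, -1.84 for Errfi1 and -2.06 for Noct. Cytokine and NF-kB genes gave -4.15 for Cxcl1, -2.84 for Ccl6, -3.41 for Socs3, -1.68 for Nfkbiz, -2.09 for Tnfaip2, -2.18 for Bcl3, -1.35 for Cebpd and -1.11 for the chaperone Dnajb4.

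Among leukocyte genes the values were -3.13 for Clec4d, -2.97 for Mmp8, -2.77 for S100a8, -2.16 for Csf3r, -1.85 for Lcn2, -1.62 for Itgax, -1.34 for Cd14, -1.58 for Klra17, -3.05 for Igha and -2.76 for Jchain. Vascular, matrix and fibrinolysis genes gave -3.67 for Esm1, -3.06 for Thbs1, -1.73 for Plat, -1.64 for Plaur and -0.98 for Cav1, and the glycolytic regulator Pfkfb3 gave -1.99.

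On the higher side the values were 2.0 for Nes, 1.87 for Il4i1, 1.69 for Gas1, 1.67 for Snrnp48, 1.64 for Shmt1, 1.58 for Pdpk1, 1.33 for Cplx2, 1.30 for Tmem63b, 1.28 for Hyou1, 1.26 for Fntb and 1.11 for Mrpl39.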

How the results depend on the processing

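The count of calls depended on the dim array and on the variance model. On 12 arrays the count of 0 stayed 0 except under array weights (202 genes, 70 of them among the 81), with the actin or brightness covariate (1 each) and when 1 array was left out (0 to 81). Array weights gave knockout SpV array 1 a weight of 0.126, and their fit stopped before full convergence. On 11 arrays the 81 calls became 5271 without scaling, where the median gene shifted by -1.06, 251 under array weights (64.5% lower against 86.4%), 33 with no filter on low signals, 22 with no intensity trend, 3 with the brightness covariate, 0 with the actin covariate (790 at an unadjusted p under 0.05) and 10 to 88 with 1 further array left out. Without wild-type HVT array 1, 73.5% of the calls were lower. Other scalings, pseudocounts, a stricter filter, every probe set and robust eBayes gave 78 to 105.

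The replicate block gave 0 calls on 12 arrays and 50 on 11, 41 of them among the 81. It is not known whether the numbers pair the arrays, and the cause of the calls lost there was not tested.

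All 81 called genes kept their sign under every alternative that tested them, except Nes (-0.69) when the 11 arrays were normalized alone, where another Nes probe set became the brightest, and Mrpl39 (-0.14) without scaling. The called genes were chosen on these same arrays, so their kept signs are not separate support. Among genes not called, without scaling the values were -0.46 for Ndufs1, -0.51 for Ndufv2 and -0.28 for Myl7. With scaling alone they were 0.17 for Sftpd and 0.0855 for Nqo1, and with equal medians 0.0485 for Sftpd. With the actin covariate they were -0.83 for Rsad2, 0.61 for Nqo1 and 0.47 for Ptgs2, and with 1 further array left out Nqo1 ran from -0.341 to 0.0132 (without knockout HVT array 1). Apart from the cases named, the cause of these changes was not tested. Weak signals limit what can be seen, since the pseudocount pulls their differences towards 0.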
